A study of Mus musculus with 33 samples.

Results

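The 37 genes described here act in the folding, quality control and export of secreted proteins in the endoplasmic reticulum (ER). They were taken by gene symbol, and each matched 1 row of the 17120 genes in the count table. They comprise 11 luminal chaperones and cochaperones, 4 disulfide isomerases, the 2 unfolded protein response factors Xbp1 and Atf6, 5 genes of the ATF4 branch, 3 genes of ER-associated degradation, 5 genes of the COPII coat and collagen export, the 2 CREB3L transcription factors, 3 translocon genes and 2 KDEL receptors.

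RNA was sequenced from mouse embryonic stem cells that carry the ScxGFP tendon reporter and were differentiated in culture. All groups first passed through embryoid bodies and paraxial mesoderm (PM) with the BMP inhibitor LDN-193189 and the Wnt agonist CHIR. One form of the study's protocol also adds AGN 193109 or all-trans retinoic acid at that stage, and whether the cultures sequenced here received either before day 6 was not given in the sources used here, so that comparisons with PM may also span a change of retinoid compound. The paper describes embryoid body formation as a step before PM specification and, for its gel cultures, PM at day 6 in flat culture. The culture format of the PM libraries is therefore uncertain. PM was sampled at day 6. From then on all cells were kept as monolayers with TGFβ1, the hedgehog agonist SAG and FGF2, together with either CD1530, an agonist of retinoic acid receptor gamma used for tendon fate, or AGN 193109, an inverse agonist of retinoic acid receptors used for fibrocartilage fate. Both were sampled on the first day at D6.25 and D6.75, then at D7.5, at D8.5 and last at D10, so that there were 11 groups of 3 libraries. Several stem cell lines were used in the study, and which line gave which library was not stated in the sources used here.

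A secreted protein enters the ER through the Sec61 translocon, is folded by chaperones and disulfide isomerases, and leaves in vesicles coated by COPII. The unfolded protein response adjusts this machinery through 3 sensors: IRE1 splices Xbp1 RNA, ATF6 is cut to release a transcription factor, and PERK lowers translation while raising that of ATF4. Fibrous tissues such as tendon and cartilage secrete large amounts of collagen, which needs prolyl hydroxylation and large export carriers, and the ER-bound factors CREB3L1 and CREB3L2 are known for their part in bone and cartilage secretion.

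Expression is given as CPM, the usual share of a library's counts scaled by the trimmed mean of M values (TMM), as mean ± SD of the 3 libraries of a group. Differences are log2 fold changes with their standard error (SE) from 1 edgeR quasi-likelihood fit over all 33 libraries, and a gene is called when its Benjamini-Hochberg adjusted p over the 17120 genes is below 0.05. Libraries held 17116084 to 38120841 counts, with a median of 19899242, and no member had fewer than 124 counts in any library. None of the 37 members was removed by the filter on low counts. Groups are said not to overlap when every library of 1 lies above every library of the other. Between CD1530 and AGN 193109 this held for 9765 of the 17120 genes and 26 members at D10. At D7.5 it held for 7278 genes and 22 members. Between D10 and PM it held for 14451 genes under CD1530 and 14249 under AGN 193109, and for 36 members in each. The RNA came from mixed cultures, so that fewer cells of a type and less RNA per cell cannot be told apart. At D10 the summed level of 4 cartilage markers (Col2a1, Acan, Matn4, Sox9) was 223 to 229 CPM under CD1530 and 2909 to 3042 CPM under AGN 193109, and that of 4 tendon markers (Scx, Mkx, Tnmd, Fmod) was 1315 to 1354 and 3266 to 3490.4 CPM. Most of the tendon marker gap was Fmod, at 434 CPM under CD1530 and 2087 under AGN 193109. Scx was at 858 and 1223 CPM, Tnmd at 5.12 and 10.4 CPM, and Mkx was not called (36.7 and 37.2 CPM). The 4 neural markers summed to 67.99 to 72.2 CPM under CD1530 and 16.1 to 17.9 CPM under AGN 193109, the 4 endothelial markers to 134 to 146 and 128 to 136 CPM, and the 4 endoderm markers to 8.60 to 9.80 and 15.4 to 19.1 CPM. Endothelial and endoderm markers were called in both directions. Kdr was called higher under CD1530 (45.3 CPM, and 21.2 under AGN 193109), Cdh5 and Tek lower, and Pecam1 was not called. Foxa2 was called lower under CD1530 (4.28 CPM, and 14.1 under AGN 193109), Sox17 and Afp higher, and Ttr was not called. The 3 pluripotency markers went from 1263 to 1285 CPM in PM to 78.5 to 83.5 CPM under CD1530 and 188 to 197 CPM under AGN 193109. The gap at D10 was that of Pou5f1 (26.6 CPM under CD1530 and 149 under AGN 193109). Nanog went the other way and was called higher under CD1530 (46.1 CPM, and 35.2 under AGN 193109). Zfp42 was not called (7.62 CPM under CD1530 and 7.24 under AGN 193109). The 2 muscle markers found in the table summed to at most 0.653 CPM at D10. The 4 paraxial mesoderm markers (Tbx6, Msgn1, Tcf15, Meox1) summed to 31.1 to 34.5 CPM in PM and 165 to 173 CPM under CD1530 at D8.5. At D10 they summed to 89.2 to 93.8 CPM under CD1530 and 74.1 to 78.0 CPM under AGN 193109. From PM to D10, 2 of these 4 were called higher and 2 lower under CD1530, beside 43.3% and 39.9% of all genes. Under AGN 193109, 1 was called higher and 3 lower, beside 41.6% and 40.4% of all genes. The part of these markers in the members' differences was not tested.

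The promoters of several members carry short sequences that match elements bound by factors of the unfolded protein response. They are shown as a description, and whether these genes respond through them was not tested. In the 250 bases before the RefSeq start (GRCm38.p6), both strands were searched for the ER stress response element (ERSE, CCAAT and CCACG parted by 9 bases), for ERSE-II (ATTGG and CCACG parted by 1 base), for the unfolded protein response element (UPRE, TGACGTG) and for the C/EBP-ATF response element (CARE, TGATGNAA). Only the letters given here were required, and longer forms of these motifs, which would match fewer windows, were not searched. A window was found for 32 of the 37 members. The ERSE was present in 7 of the 32 (21.9%) and in 0.13% of all 27025 genes with a window. ERSE-II was present in 1 member (3.12%), Herpud1, and in 0.037% of all genes. The UPRE was present in 4 members (12.5%), Hspa5, Kdelr3, Mia3 and Sec24d, and in 1.85% of all genes. The CARE was present in 3 members (9.38%), Asns, Chac1 and Herpud1, and in 3.91% of all genes. Thus 13 members held at least 1 of the 4 motifs and 19 held none of these letters in this window.

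The 30 bases around each ERSE, ERSE-II and CARE are printed below on the strand of the gene, 5′ to 3′, with the motif in capitals; no motif found overlapped another. A motif that lies on the other strand reads as its reverse complement, as in Calr, Creld2, the site of Hsp90b1 nearer to the start and the CARE of Herpud1 and Chac1.
Hspa5, ERSE, chr2:34772020-34772049, plus strand: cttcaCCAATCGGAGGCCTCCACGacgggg
Hsp90b1, ERSE, chr10:86705632-86705661, minus strand: caagcCCAATCGCAAGGAGCCACGcttcgg
Hsp90b1, ERSE, chr10:86705527-86705556, minus strand: gagtgCGTGGTGAGGCACGATTGGtgagtt
Calr, ERSE, chr8:84847069-84847098, minus strand: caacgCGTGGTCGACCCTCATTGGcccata
Canx, ERSE, chr11:50325794-50325823, minus strand: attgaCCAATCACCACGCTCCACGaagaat
Creld2, ERSE, chr15:88819515-88819544, plus strand: cttctCGTGGCGAGCCTCAATTGGtccaca
Dnajc3, ERSE, chr14:118937822-118937851, plus strand: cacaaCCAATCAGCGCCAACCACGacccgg
Pdia6, ERSE, chr12:17266486-17266515, plus strand: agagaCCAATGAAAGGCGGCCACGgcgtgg
Herpud1, ERSE-II, chr8:94386368-94386397, plus strand: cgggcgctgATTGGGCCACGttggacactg
Herpud1, CARE, chr8:94386306-94386335, plus strand: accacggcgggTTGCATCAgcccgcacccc
Asns, CARE, chr6:7693214-7693243, minus strand: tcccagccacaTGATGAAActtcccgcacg
Chac1, CARE, chr2:119351038-119351067, plus strand: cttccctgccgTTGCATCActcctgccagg
The ERSE began and ended 65 to 47 bases before the RefSeq start of Hspa5, 98 to 80 bases before that of Pdia6 and 162 to 144 bases before that of Calr. The CARE lay 23 to 16 bases before the RefSeq start of Asns and 193 to 186 bases before that of Chac1. GENCODE places the starts of Hspa5 (chr2:34771970) and Asns (chr6:7693254) further upstream. The ERSE of Hspa5 and the CARE of Asns thus lie inside the genes as GENCODE annotates them. A match is a description of the sequence and no measure of binding.

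Over the whole time course the set rose. The 37 members together made up 8327 to 8659 CPM in PM, 13513 to 13686 CPM under CD1530 at D10 and 15909 to 16233 CPM under AGN 193109 at D10. At D10, 33 of 37 members were called higher and 4 lower than in PM under CD1530 (median log2 fold change 0.94), while 43.3% of all genes were called higher and 39.9% lower with a median of 0.0431. Under AGN 193109, 34 were called higher and 2 lower, with a median of 0.98, beside 41.6% and 40.4% of all genes and a median of -0.0025. The members that were lower all belonged to the ATF4 branch: Atf4, Trib3, Chac1 and Asns under CD1530, and Atf4 and Asns under AGN 193109. For Chac1 the PM and CD1530 libraries overlapped, and its call (adjusted p = 0.0181) was lost without PM D6 replicate 1, PM D6 replicate 2 or CD1530 D10 replicate 1, with an adjusted p of up to 0.0943. Of the 37 calls under CD1530, 34 held in every alternative fit, as did all 36 under AGN 193109. Both comparisons share the PM libraries. The culture format of PM is uncertain and all later groups were monolayers, so that any change of culture format and the start of induction cannot be told apart. Scaling by library size alone moved the median of all genes by -0.112 under CD1530 and -0.149 under AGN 193109 in these comparisons. With that scaling 31 members were called higher under CD1530 and 34 under AGN 193109.

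**Figure D1:**
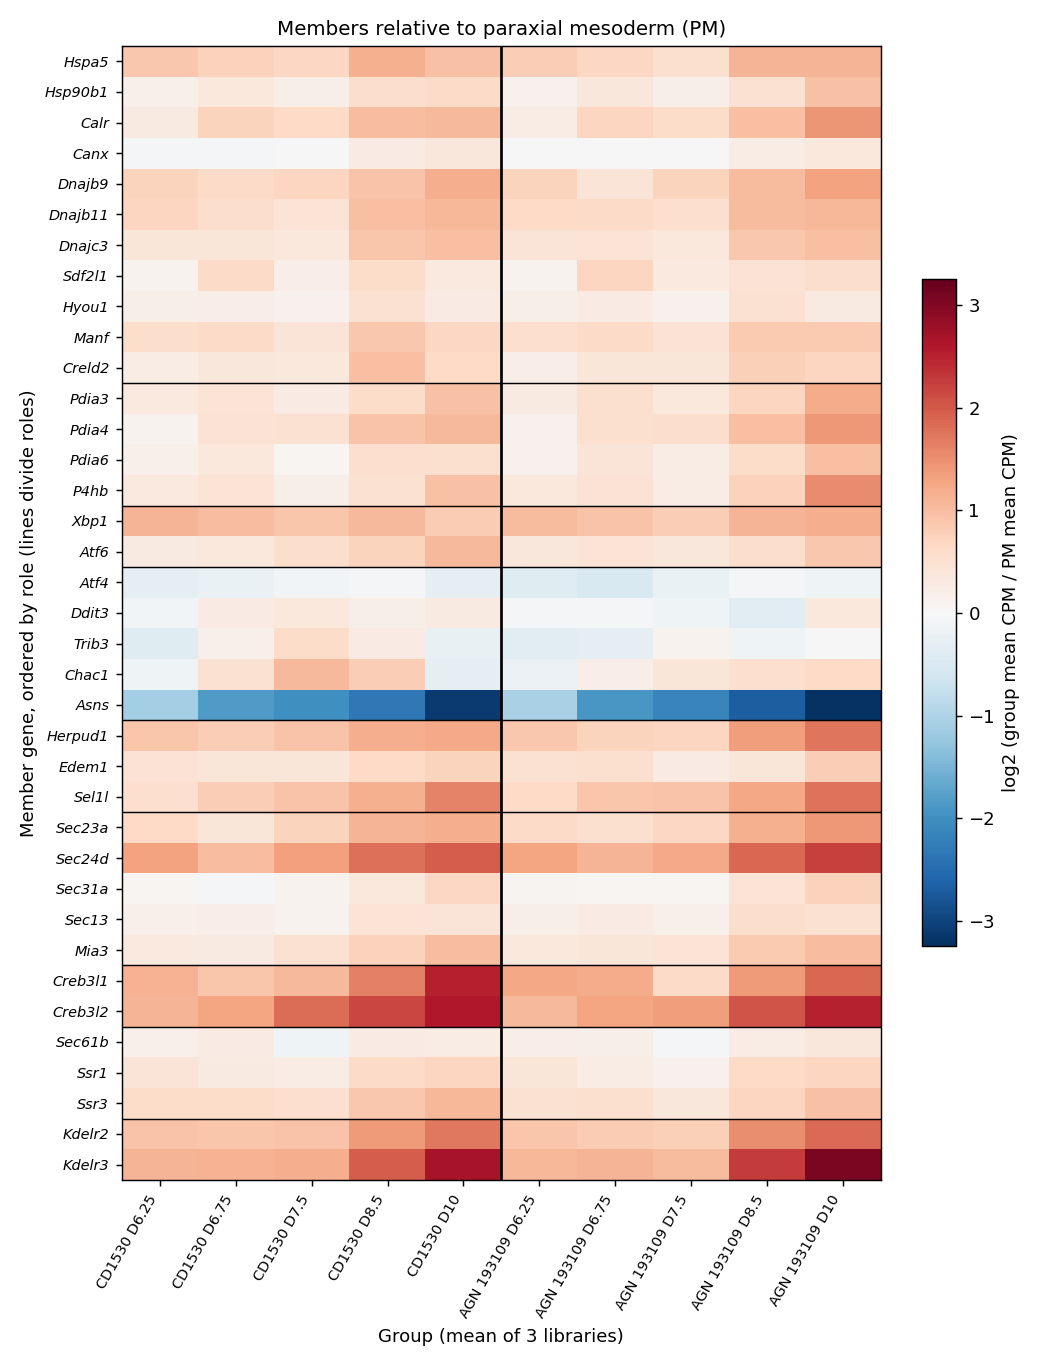
Heat map of the 37 members (rows, by role) in the 10 induced groups (columns); colour is the log2 ratio of the group mean CPM to the PM mean CPM. Most rows turn red towards D10, Kdelr3 and Creb3l2 most deeply, while Asns is blue in every induced group.

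All 11 luminal chaperones and cochaperones were called higher at D10 than in PM under CD1530 and under AGN 193109, beside 43.3% and 41.6% of all genes. Hspa5, which encodes BiP, the central Hsp70 chaperone of the ER, was at 609.6, 619 and 588 CPM in the 3 PM libraries, at 1148, 1173 and 1175 under CD1530 at D10 and at 1298, 1319.8 and 1309 under AGN 193109 at D10. Every D10 library was above every PM library, and at D10 the compounds differed without overlap (log2 fold change -0.17, SE 0.0275, adjusted p = 2.33e-06). Its course was not a steady rise: group means under CD1530 went from 606 in PM to 1114 at D6.25, down to 957 at D7.5 and up to 1342 at D8.5. Hspa5 is named for its central place in the pathway, after its values were seen. Calr, which encodes the glycoprotein chaperone calreticulin, was at 694, 693 and 666 CPM in PM, at 1401, 1433 and 1413 under CD1530 at D10 and at 1872, 1834 and 1811 under AGN 193109 at D10. The CD1530 and AGN 193109 libraries did not overlap (log2 fold change -0.38, SE 0.0299, adjusted p = 4.31e-14), whereas at D8.5 the group means were 1381 and 1359. Hsp90b1, the ER paralogue of Hsp90, was at 867, 865 and 876 CPM under CD1530 and at 1135, 1101 and 1067 under AGN 193109 at D10, again without overlap (log2 fold change -0.34, SE 0.0343, adjusted p = 3.76e-11). An antisense pseudogene shares 10.3% of the annotated exon bases of Hsp90b1, and how reads were assigned by strand was not given in the sources used here.

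Sdf2l1, which keeps J-domain proteins and BiP bound to unfolded chains, was highest early, with a mean of 35.4 ± 1.11 CPM under AGN 193109 at D6.75. At D10 it was at 25.3, 29.00 and 26.9 CPM under CD1530 and 30.9, 33.1 and 32.97 under AGN 193109 (log2 fold change -0.26, SE 0.0714, adjusted p = 0.00262). Dnajb9, a BiP cochaperone, rose from 16.7, 16.7 and 15.8 CPM in PM to 38.4, 36.5 and 36.3 under CD1530 and 41.1, 38.8 and 41.5 under AGN 193109 at D10, a log2 fold change over PM of 1.18 and 1.30. Its difference between CD1530 and AGN 193109 was not called at any of the 5 times. The same was true of the lectin chaperone Canx, the cochaperone Dnajc3 and the BiP exchange factor Hyou1, whose group means ranged from 764 to 1023, from 76.7 to 151 and from 304 to 429 CPM. The cochaperone Dnajb11 ranged from 71.7 CPM in PM to 153 under CD1530 at D10. Manf, a small stress-inducible protein of the ER, ranged from 95.4 CPM in PM to 176 under CD1530 at D8.5 and shares exon bases with the opposite-strand genes Dcaf1 and 4930524O07Rik. Creld2 was another stress-inducible protein of the lumen, with means from 47.9 CPM in PM to 93.9 under CD1530 at D8.5. At D10, 5 of the 11 were lower under CD1530 than under AGN 193109 and 0 higher, beside 24.0% and 22.7% of all genes, and for Manf the call (adjusted p = 0.0122) was lost without CD1530 D10 replicate 1 and with scaling by library size alone, with an adjusted p of up to 0.0776.

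**Figure D2:**
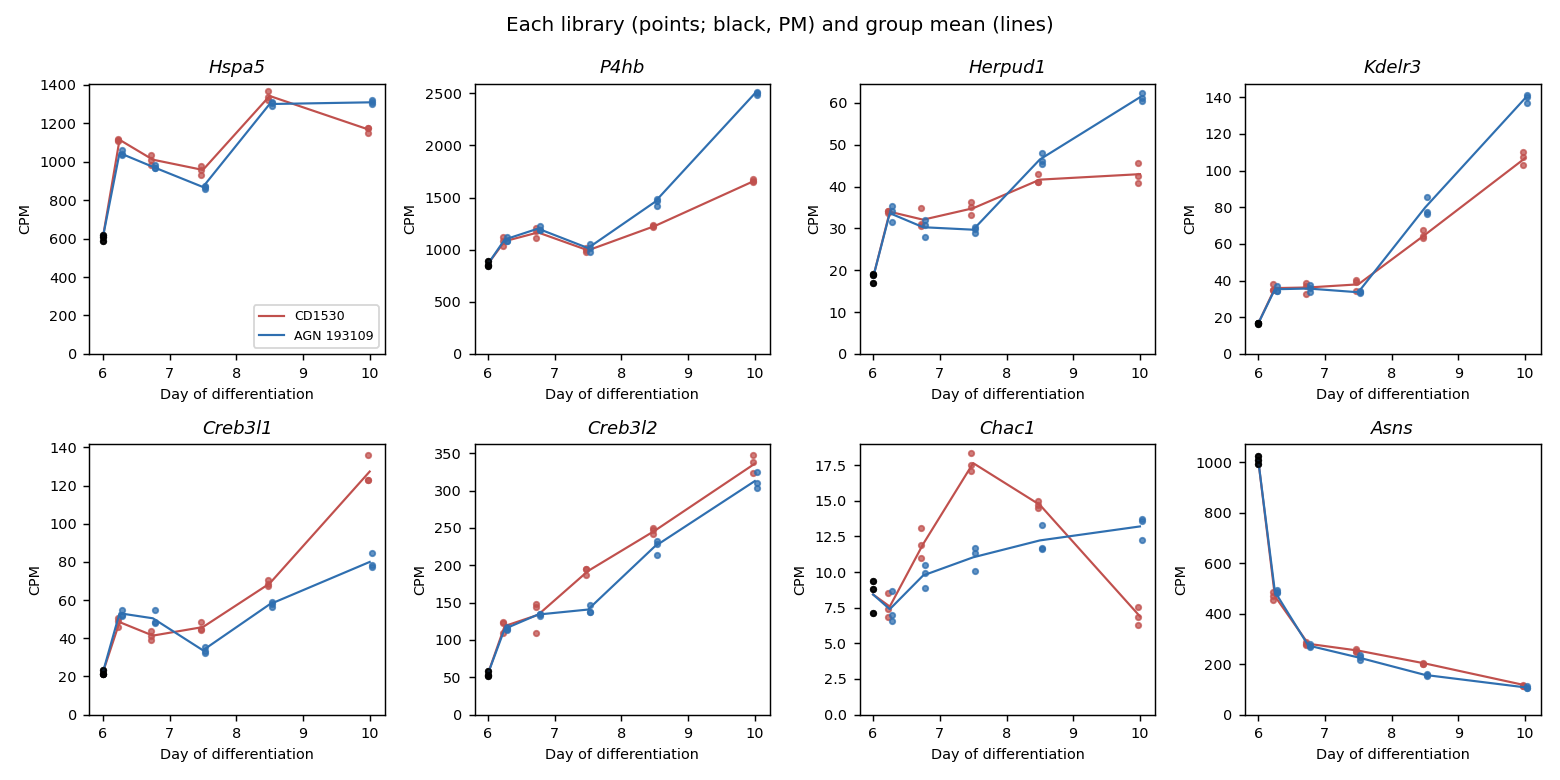
CPM of 8 members against day of differentiation; points are single libraries (black, PM; red, CD1530; blue, AGN 193109) and lines join group means. P4hb, Herpud1 and Kdelr3 end higher under AGN 193109, Creb3l1 ends higher under CD1530, Chac1 peaks at D7.5 under CD1530, and Asns falls throughout under both.

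All 4 disulfide isomerases were called lower at D10 under CD1530 than under AGN 193109, beside 24.0% of all genes. P4hb (chr11:120560298-120573253, minus strand; gene positions are those of GENCODE on GRCm38), which encodes protein disulfide isomerase and the shared subunit of collagen prolyl 4-hydroxylase, was at 850.3, 893 and 846 CPM in PM. At D10 it was at 1659.7, 1678 and 1651 CPM under CD1530 and at 2510.1, 2482 and 2505 under AGN 193109, 3 libraries against 3 with a wide gap (log2 fold change -0.59, SE 0.0327, adjusted p = 6.54e-19). The means were 994 ± 19.4 and 1015 ± 38.1 CPM at D7.5, where no difference was called, and 1227 ± 7.05 and 1457 ± 32.4 CPM at D8.5, where it was (log2 fold change -0.25, adjusted p = 4.05e-08). Per kilobase of exon, P4hb was the most abundant member at D10, at 581 CPM per kb under CD1530 and 874 under AGN 193109. Pdia6, an isomerase that acts with BiP, was at 448, 464 and 434 CPM in PM, 627, 649 and 657 under CD1530 at D10 and 899, 873 and 887 under AGN 193109 at D10 (log2 fold change -0.46, SE 0.0351, adjusted p = 1.43e-14). Pdia4, another isomerase of the lumen, went from 208, 216 and 203 CPM in PM to 428, 438 and 429 under CD1530 and to 573, 554 and 548 under AGN 193109 (log2 fold change -0.37, SE 0.0322, adjusted p = 6.82e-13). Pdia3, the partner of calreticulin and calnexin, ranged from 662 CPM in PM to 1525 under AGN 193109 at D10.

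Of the 2 factors of the unfolded protein response, Xbp1 rose within the first step. It was at 75.7, 78.2 and 77.5 CPM in PM and at 169.8, 169.5 and 160.5 under CD1530 and 154, 159 and 159 under AGN 193109 at D6.25. The log2 fold change over PM was 1.11 and 1.03. At D10 Xbp1 was at 139, 135 and 135 CPM under CD1530 and 181, 177 and 167 under AGN 193109, without overlap (log2 fold change -0.36, SE 0.0385, adjusted p = 1.98e-10). Counts per gene do not separate spliced from unspliced Xbp1 RNA. Atf6 was at 34.4, 29.3 and 31.3 CPM in PM, at 63.1, 63.95 and 68.7 under CD1530 at D10 and at 58.3, 56.5 and 60.4 under AGN 193109 at D10, and its difference between them was not called at any of the 5 times (adjusted p = 0.129 at D10).

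The ATF4 branch followed another course, and its members did not all move together. From PM to D10, 1 of its 5 members, Ddit3, was called higher under CD1530 and 4 were called lower. Under AGN 193109, Ddit3 and Chac1 were called higher, 2 lower and 1 was not called. Of all genes, 43.3% and 41.6% were called higher and 39.9% and 40.4% lower. Asns (chr6:7675169-7693254, minus strand), which encodes asparagine synthetase, was the most abundant member per kilobase of exon in PM, at 369 CPM per kb, and was called lower in each of the 3 successive steps. It was at 994, 1025 and 1008 CPM in PM, 115, 119 and 115 under CD1530 at D10 and 114, 104 and 107 under AGN 193109 at D10, a log2 fold change over PM of -3.11 (SE 0.0376, adjusted p = 3.56e-43) and -3.22 (SE 0.038, adjusted p = 1.53e-43). Asns was higher under CD1530 at D8.5, with means of 203 ± 2.99 and 157 ± 3.52 CPM (log2 fold change 0.37, adjusted p = 2.9e-11). At D10 the difference was 0.11 (adjusted p = 0.0172), and that call was lost in 5 of 14 alternatives, among them leaving out CD1530 D10 replicate 2, AGN D10 replicate 2 or AGN D10 replicate 3, with an adjusted p of up to 0.113.

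Chac1 (chr2:119351229-119354381, plus strand), an enzyme that degrades glutathione, was the member whose difference between the compounds changed most from D7.5 to D10. At D7.5 it was at 18.3, 17.1 and 17.5 CPM under CD1530 and 11.3, 10.1 and 11.7 under AGN 193109 (log2 fold change 0.68, SE 0.0966, adjusted p = 3.92e-07). At D10 it was at 6.31, 6.82 and 7.53 CPM under CD1530 and 12.3, 13.7 and 13.6 under AGN 193109 (log2 fold change -0.94, SE 0.112, adjusted p = 2.75e-09). The libraries of CD1530 were all above those of AGN 193109 at D7.5 and all below them at D10. Trib3, a pseudokinase induced through ATF4, was at 45.3, 40.8 and 42.5 CPM under CD1530 and 31.1, 29.6 and 31.7 under AGN 193109 at D7.5 (log2 fold change 0.48, SE 0.0582, adjusted p = 1.42e-08). At D10 it was at 22.9, 26.5 and 23.6 CPM under CD1530 and 28.1, 28.2 and 28.1 under AGN 193109, and this difference (-0.21, adjusted p = 0.00623) had an adjusted p of 0.0549 without CD1530 D10 replicate 1. Ddit3, which encodes the stress factor CHOP, was at 27.3, 25.3 and 21.2 CPM under CD1530 and 14.6, 16.5 and 18.4 under AGN 193109 at D8.5 (log2 fold change 0.60, SE 0.0888, adjusted p = 5.28e-07) and was not called at D10, where the means were 26.1 and 27.1 CPM. Atf4 itself ranged from 189 CPM under AGN 193109 at D6.75 to 265 in PM, and its RNA does not measure its protein, which is set largely by translation. Atf4 and Ddit3 are described as the 2 transcription factors of the branch, after their values were seen. Part of the annotated exons of Ddit3 is shared with a second entry of the same name (6.13%) and with Mars (3.97%).

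The genes of ER-associated degradation rose in both conditions. Herpud1, a membrane protein that organises the degradation complex, was at 19.1, 18.7 and 16.9 CPM in PM, 45.6, 40.9 and 42.4 under CD1530 at D10 and 62.3, 60.5 and 61.2 under AGN 193109 at D10. The D10 groups did not overlap (log2 fold change -0.51, SE 0.0563, adjusted p = 3.67e-10). At D7.5 the order was the other way, with means of 34.8 ± 1.57 and 29.7 ± 0.754 CPM (log2 fold change 0.23, adjusted p = 0.00255). Sel1l, the adaptor of the Hrd1 ubiquitin ligase, rose from 71.6, 70.9 and 64.6 CPM in PM to 205, 203 and 219.6 under CD1530 and 234, 239.7 and 229 under AGN 193109 at D10. Its D10 difference (-0.16, adjusted p = 0.0154) was not called without CD1530 D10 replicate 1, CD1530 D10 replicate 2 or AGN D10 replicate 2, with an adjusted p of up to 0.0692. Edem1, which picks out misfolded glycoproteins, ranged from 68.6 CPM in PM to 119 under AGN 193109 at D10.

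In the COPII coat, the cargo-binding subunit Sec24d rose most. It was at 55.8, 54.6 and 51.98 CPM in PM, at 127, 136 and 136 under CD1530 and 131, 132 and 132 under AGN 193109 at D6.25. At D10 it was at 211, 209.8 and 218 CPM under CD1530 and 259, 254 and 250.3 under AGN 193109. The log2 fold change from PM to D10 was 1.97 under CD1530 and 2.23 under AGN 193109, and the D10 groups differed without overlap (log2 fold change -0.26, SE 0.039, adjusted p = 5.44e-07). Sec23a, the partner of Sec24 in the inner coat, was at 97.2, 93.2 and 92.1 CPM in PM, 213, 209 and 219 under CD1530 at D10 and 253, 258 and 237 under AGN 193109 at D10 (log2 fold change -0.22, SE 0.0431, adjusted p = 3.14e-05). An antisense transcript shares 8.9% of its annotated exon bases. The outer coat genes changed less: Sec31a ranged from 280.2 to 495 CPM and Sec13 from 118 to 176 CPM. Mia3, which encodes TANGO1, the receptor that loads collagen into export carriers, ranged from 67.7 CPM in PM to 136 under AGN 193109 at D10, where CD1530 stood at 136 ± 3.88 and AGN 193109 at 136 ± 5.66 CPM with no call at any of the 5 times.

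The CREB3L transcription factors rose under both compounds. Creb3l1 (chr2:91982328-92024502, minus strand), known as a regulator of collagen I in bone, was at 23.4, 21.3 and 21.4 CPM in PM. At D10 it was at 123, 136 and 123 CPM under CD1530 and 84.5, 78.2 and 77.4 under AGN 193109, with every CD1530 library above every AGN 193109 library (log2 fold change 0.67, SE 0.0534, adjusted p = 5.05e-14). This was the largest difference in that direction among the 37 members at D10, and it was called in all 14 alternatives run for it. The order was not the same earlier, since Creb3l1 was lower under CD1530 at D6.75 (means 41.4 ± 2.56 and 50.5 ± 3.71 CPM, log2 fold change -0.29, adjusted p = 0.000209, and 0.0625 when the 2 groups were fitted alone). Creb3l2, known for inducing Sec23a in cartilage, was at 59.1, 53.6 and 52.03 CPM in PM, 338, 323 and 347 under CD1530 at D10 and 303, 309.7 and 325 under AGN 193109 at D10, where the ranges overlapped and no difference was called (adjusted p = 0.209). At D7.5 it was at 195, 187 and 195 CPM under CD1530 and 138, 147 and 137 under AGN 193109, without overlap (log2 fold change 0.45, SE 0.068, adjusted p = 6.43e-06).

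Among the translocon genes, Ssr3, a subunit of the translocon-associated protein complex, was at 316, 299 and 302 CPM in PM, 641, 655 and 632 under CD1530 at D10 and 592, 582 and 586 under AGN 193109 at D10 (log2 fold change 0.13, SE 0.0286, adjusted p = 0.000189). Ssr1, of the same complex, was at 268, 267 and 251 CPM in PM, 423, 424 and 432 under CD1530 at D10 and 437, 424 and 422 under AGN 193109 at D10, overlapping and not called (adjusted p = 0.933). Sec61b, a subunit of the channel itself, was at 91.6, 90.8 and 87.3 CPM under CD1530 and 98.2, 96.4 and 100.3 under AGN 193109 at D10 (log2 fold change -0.13, adjusted p = 0.158). Its means ranged from 69.3 CPM under CD1530 at D7.5 to 98.3 under AGN 193109 at D10, and it was not called between the compounds at any of the 5 times.

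The KDEL receptors return chaperones that have escaped to the Golgi. Kdelr3 (chr15:79516411-79527739, plus strand) was at 16.4, 16.7 and 16.8 CPM in PM, 110.3, 107 and 103 under CD1530 at D10 and 141, 137 and 140.1 under AGN 193109 at D10. Its log2 fold change from PM to D10, 2.69 under CD1530 and 3.07 under AGN 193109, was the largest rise of the 37 members in each condition. The D10 groups did not overlap (log2 fold change -0.38, SE 0.0525, adjusted p = 5.87e-08). Kdelr2 rose from 92.1, 94.5 and 85.8 CPM in PM to 292, 296 and 298 under CD1530 and 335, 329 and 313 under AGN 193109 (log2 fold change -0.14, SE 0.0405, adjusted p = 0.00369 between them).

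The comparison of CD1530 with AGN 193109 asks how the members differ between the tendon and the fibrocartilage induction at each time. At D6.25 no member was called by edgeR's quasi-likelihood test, 4 had an unadjusted p below 0.05 (beside 11.7% of all genes) and DESeq2 called 2 (beside 2.14% of all genes). By the quasi-likelihood test 1.23% of all genes were called higher and 0.695% lower. At D6.75, 4 members were higher under CD1530 and 5 lower, beside 7.94% and 10.0% of all genes. The 4 that were higher were Atf4, Ddit3, Trib3 and Chac1, all of the ATF4 branch, and those that were lower were Pdia3, Edem1, Sec23a, Sec31a and Creb3l1. CD1530 D6.75 replicate 1 stood apart over all genes. Its counts differed from those of replicates 2 and 3 by a chi-square per gene of 20.3 and 21.5, beside 2.31 between replicates 2 and 3. The highest such value within any other group was 4.76. Among the members, Sec31a was at 244, 294 and 303 and Creb3l2 at 109, 147 and 144 CPM in replicates 1 to 3. Without CD1530 D6.75 replicate 1, 8 members were called. The count depended on single libraries: it fell from 9 to 5 without AGN D6.75 replicate 1 and to 2 when the groups were fitted alone, and 2 of the 9 calls held in every alternative. Without AGN D6.75 replicate 2 there were 3 lower calls, without AGN D6.75 replicate 3 there were 2 higher ones, and with scaling by library size alone the split was 4 higher and 2 lower.

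At D7.5, 15 members were higher under CD1530 and 2 lower (median log2 fold change 0.049), while 15.2% of all genes were higher and 11.8% lower with a median of 0.00776. The higher members included all 5 genes of the ATF4 branch, both CREB3L factors, both KDEL receptors, Hspa5, Xbp1, Herpud1, Edem1, Ssr1 and Ssr3. The lower ones were Dnajb11 and Pdia6. At the same time the endothelial markers summed to 352 to 373 CPM under CD1530 and 218 to 244 under AGN 193109, with 3 of 4 called higher, and the neural markers to 65.9 to 70.2 and 48.3 to 50.8 CPM, with 3 of 4 called higher, and their part in the members' differences was not tested. The split was 14 and 4 with DESeq2's size factors and 13 and 4 with scaling by library size alone. Only 1 lower call was left without CD1530 D7.5 replicate 2, CD1530 D7.5 replicate 3 or AGN D7.5 replicate 1. Of the higher calls, Xbp1, Atf4, Edem1, Ssr1 and Kdelr3 were each lost in at least 1 alternative: Xbp1 without CD1530 D7.5 replicate 1 (adjusted p = 0.106), Atf4 without AGN D7.5 replicate 2 (0.0521), Ssr1 without CD1530 D7.5 replicate 3 (0.0564), and Edem1 and Kdelr3 without several libraries in turn. At D8.5, 8 were higher and 7 lower, beside 20.4% and 19.6% of all genes. The higher ones were Creld2, Ddit3, Trib3, Chac1, Asns, Edem1, Creb3l1 and Ssr3, and the lower ones Pdia3, P4hb, Herpud1, Sec31a, Sec13, Kdelr2 and Kdelr3. The calls of Pdia3, Chac1, Herpud1, Sec31a, Sec13 and Kdelr2 were each lost in at least 1 alternative. There were 4 lower calls at D8.5 without CD1530 D8.5 replicate 3, AGN D8.5 replicate 1 or AGN D8.5 replicate 2, and with scaling by library size alone the split was 11 higher and 2 lower.

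At D10 the direction was mostly the other way. Only 3 members, Creb3l1, Ssr3 and Asns, were higher under CD1530 and 19 were lower (median log2 fold change -0.14), while 22.7% of all genes were higher and 24.0% lower with a median of -0.0186. In the alternatives 18 of these 22 calls always held, and the exceptions were Manf, Trib3, Asns and Sel1l. Counted over the 5 times, 10 members were called higher at 1 time and lower at another, 14 were called lower only, 6 higher only and 7 at no time. Of all genes, 7.5% were called in both directions, 30.4% lower only, 28.5% higher only and 33.6% at no time. The 8 members called higher at D7.5 and lower at D10 were Hspa5, Xbp1, Atf4, Trib3, Chac1, Herpud1, Kdelr2 and Kdelr3, a pattern found in 1.73% of all genes. In the test of whether the difference between CD1530 and AGN 193109 changed over the 5 times, 26 of 37 members were called, beside 48.8% of all genes.

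**Figure D3:**
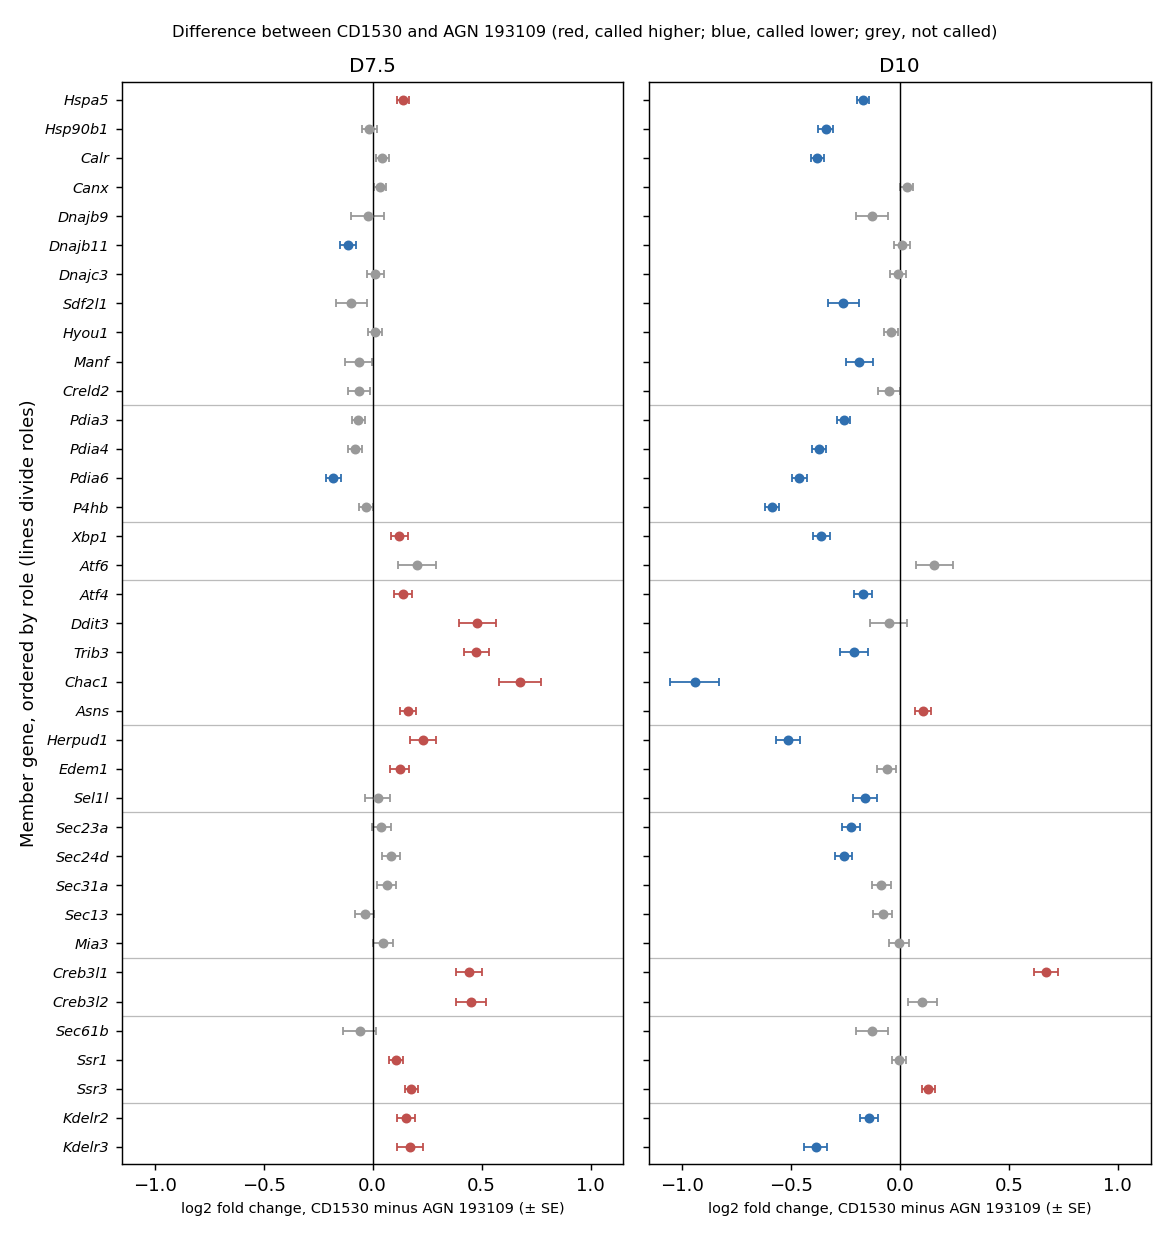
Log2 fold change of CD1530 minus AGN 193109 (points, bars ± SE) for the 37 members at D7.5 and D10; red is called higher, blue called lower and grey not called. At D7.5 there are 15 red and 2 blue points, and at D10 there are 3 red and 19 blue points.

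The time course was made of 2 rises with a flatter stretch between. From PM to D6.25, 29 members were called higher and 3 lower under CD1530 (median 0.32), and 30 and 3 under AGN 193109 (median 0.35). The shares of all genes were 34.5% and 33.3% under CD1530 and 35.0% and 33.1% under AGN 193109. The lower members were Atf4, Trib3 and Asns in both. Over this step the endoderm markers went from 1.53 to 2.15 CPM in PM to 114 to 115 under CD1530 and 129 to 132 under AGN 193109, the endothelial markers from 102 to 107 to 197 to 235 and 204 to 208, and the pluripotency markers from 1263 to 1285 to 606 to 640.5 and 583 to 588 CPM. Their part in the members' rise was not tested. Among the higher ones, the call of Sec61b was lost in both without PM D6 replicate 1 or PM D6 replicate 3, that of Atf6 under CD1530 without PM D6 replicate 2 (adjusted p = 0.0687), and that of Sec31a under AGN 193109 when 1 library, PM D6 replicate 1 or 2 or any AGN D6.25 replicate, was left out (up to 0.316). From D6.25 to D7.5, 11 of the 37 were higher and 9 lower under CD1530 (median 0.0189), both near the shares of all genes (31.3% and 26.3%). Scaling by library size alone gave 10 higher and 14 lower. Under AGN 193109, 10 were higher and 12 lower (median -0.043), beside 26.9% and 24.9% of all genes. Within this stretch Chac1 rose by 1.21 on the log2 scale under CD1530 and by 0.58 under AGN 193109, and Trib3 by 0.98 and 0.46. Under CD1530 the calls of Canx, Manf, Pdia6 and Atf6 were lost without at least 1 D6.25 or D7.5 library, and under AGN 193109 those of Dnajc3, Sdf2l1, Herpud1 and Kdelr2.

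From D7.5 to D10, 30 members were called higher and 5 lower under CD1530 (median 0.45), beside 32.1% and 34.0% of all genes. Under AGN 193109, 34 were higher and 1 lower (median 0.57), beside 32.8% and 33.7% of all genes. The lower members under CD1530 were Xbp1, Atf4, Trib3, Chac1 and Asns, and under AGN 193109 Asns was lower. The call of Xbp1 under CD1530 was lost without CD1530 D7.5 replicate 1 or 2 or CD1530 D10 replicate 2 or 3 (adjusted p of up to 0.2). Of the 35 calls in each condition, 32 under CD1530 and 31 under AGN 193109 held in every alternative fit. Without AGN D7.5 replicate 2 the number lower under AGN 193109 was 2, and 3 with scaling by library size alone. Chac1 changed by -1.36 on the log2 scale under CD1530 (adjusted p = 9.62e-15) and by 0.26 under AGN 193109 (adjusted p = 0.0247), the latter not called with library size alone or without AGN D7.5 replicate 2, AGN D10 replicate 2 or AGN D10 replicate 3 (adjusted p of up to 0.534 over the alternatives). Kdelr3 changed by 1.50 and 2.05, and P4hb by 0.74 and 1.30. Scaling by library size alone moved the median of all genes by -0.138 under CD1530 and -0.187 under AGN 193109 over this step, and under it the value of Hyou1 turned from 0.12 to -0.0225 under CD1530 and from 0.17 to -0.0197 under AGN 193109.

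**Figure D4:**
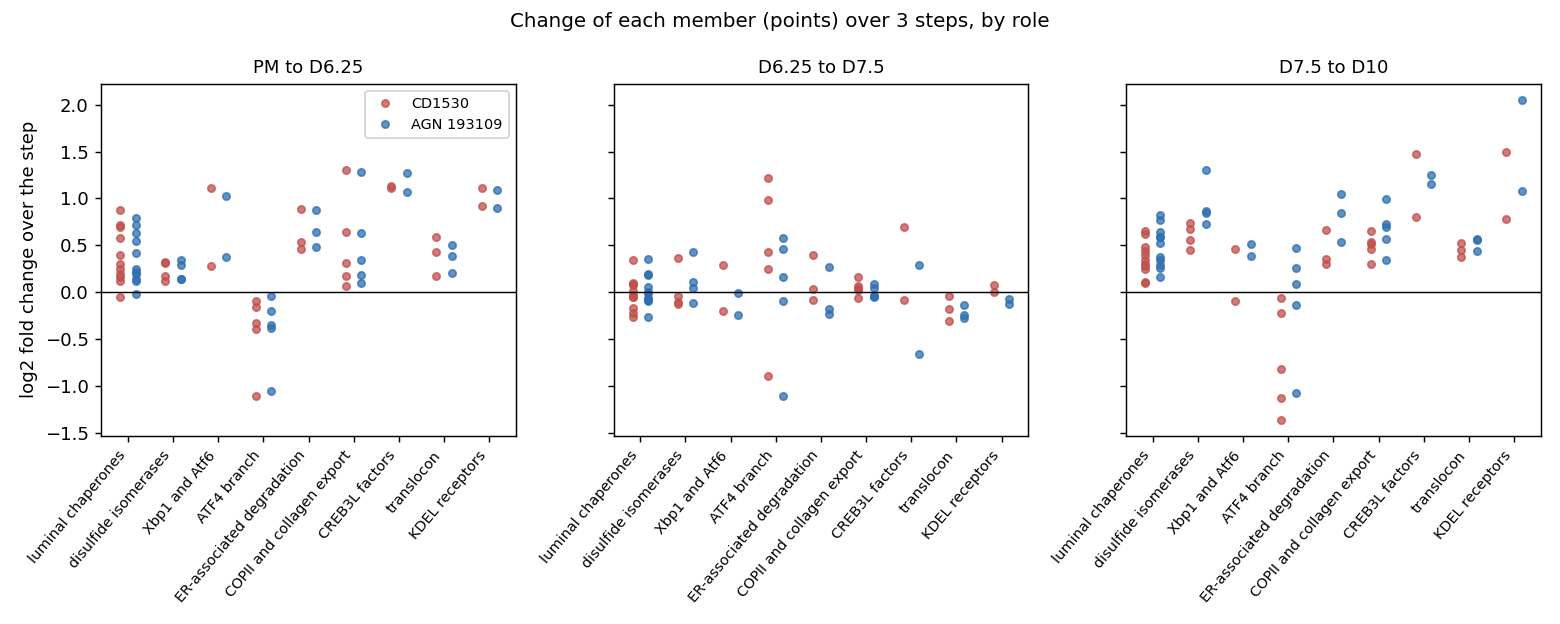
Log2 fold change of each member (points) over the steps PM to D6.25, D6.25 to D7.5 and D7.5 to D10, by role; red is CD1530 and blue AGN 193109. All 5 members of the ATF4 branch lie below 0 in the first step and, under CD1530, in the last, where most members of the other roles lie above 0.

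Other genes of the same pathways were counted for context, to be read against the 22.7% of all genes called higher and 24.0% called lower between CD1530 and AGN 193109 at D10. From PM to D10 the shares of all genes called higher were 43.3% under CD1530 and 41.6% under AGN 193109. Of 25 further genes of ER folding and collagen modification, 25 were called higher at D10 than in PM under CD1530 and 25 under AGN 193109, with medians of 1.57 and 1.80. Between CD1530 and AGN 193109 at D10, 0 of the 25 were higher and 19 lower, with a median of -0.34. The largest differences were those of P4ha3, a catalytic subunit of collagen prolyl 4-hydroxylase (36.98 CPM under CD1530 and 105 under AGN 193109, log2 fold change -1.50, adjusted p = 3.95e-23), and P3h3, a prolyl 3-hydroxylase family member (174 CPM under CD1530 and 319 under AGN 193109, log2 fold change -0.88, adjusted p = 4.62e-17). Of 22 further genes of the ATF4 branch, 7 were called higher and 13 lower at D10 than in PM under CD1530. Under AGN 193109, 11 were called higher and 10 lower. The shares of all genes called lower were 39.9% and 40.4%. Between CD1530 and AGN 193109 at D10, 3 of the 22 were higher under CD1530 and 13 lower. At D7.5, 9 of the 22 were higher and 3 lower, beside 15.2% and 11.8% of all genes. Their largest differences at D10 were in opposite directions: the stress factor Atf3 (10.8 CPM under CD1530 and 5.37 under AGN 193109, log2 fold change 1.01, adjusted p = 4e-09) and the cystine transporter Slc7a11 (3.20 CPM under CD1530 and 6.30 under AGN 193109, log2 fold change -0.97, adjusted p = 2.2e-05).

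The remaining lists are small, and the counts of the degradation and COPII genes lay near the 22.7% and 24.0% of all genes called higher and lower at D10. Of 11 further degradation genes, 3 were higher and 2 lower under CD1530 at D10, among them Derl3 (2.85 CPM under CD1530 and 4.25 under AGN 193109, log2 fold change -0.57, adjusted p = 0.00328). Of 15 further COPII and cargo genes, 2 were higher and 4 lower, led by Tmed2 (98.7 CPM under CD1530 and 119.8 under AGN 193109, log2 fold change -0.28, adjusted p = 2.81e-06) and Sec24a (48.2 CPM under CD1530 and 40.6 under AGN 193109, log2 fold change 0.25, adjusted p = 0.00755). Of 17 further genes of translocation and glycosylation, 0 were higher and 7 lower, led by Rpn2 (522 CPM under CD1530 and 657 under AGN 193109, log2 fold change -0.33, adjusted p = 4.93e-12) and Sec11c (11.3 CPM under CD1530 and 14.02 under AGN 193109, log2 fold change -0.31, adjusted p = 0.0191). Of 6 further sensors and membrane-bound factors, 0 were higher and 1 lower, the latter being Kdelr1 (167 CPM under CD1530 and 186 under AGN 193109, log2 fold change -0.16, adjusted p = 0.00454), while Ern1, which encodes IRE1, was not called (22.4 CPM under CD1530 and 19.6 under AGN 193109, log2 fold change 0.19, adjusted p = 0.0809).

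The cargo itself rose further than the members. The 7 fibrillar collagen genes summed to 2084 to 2635 CPM in PM, 9889 to 10619 CPM under CD1530 and 10698 to 11295 under AGN 193109 at D7.5, and 22684 to 23535 and 31441 to 33075 CPM at D10. At D10, 0 of the 7 were higher under CD1530 and 5 lower, with a median of -0.46, beside 22.7% and 24.0% of all genes. The largest differences were those of Col2a1 (145 CPM under CD1530 and 2497 under AGN 193109, log2 fold change -4.10, adjusted p = 2.72e-42) and Col11a1 (518 CPM under CD1530 and 931 under AGN 193109, log2 fold change -0.85, adjusted p = 1.65e-17). The libraries of AGN 193109 at D10 held more collagen RNA together with more RNA of P4hb, Calr and Kdelr3 and less of Creb3l1, and whether these depend on each other was not tested.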

How the data were processed

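Total RNA from 33 cultures was sequenced as paired reads on an Illumina HiSeq. The labels give 3 replicates in each of 11 groups, which the paper describes as biological replicates. The authors aligned reads to GRCm38 with STAR and counted them per gene with featureCounts, and deposited raw counts for 17120 genes, from which low genes had been removed. Annotation release, strand and multi-mapping settings were not given in the sources used here. The tests used edgeR 4.0.16 in R 4.3.3 (TMM, 1 mean per group, robust quasi-likelihood fit, 13 contrasts and an interaction test, Benjamini-Hochberg over all genes), after tests on simulated data. Alternatives were DESeq2 1.42.0 and its size factors, library size alone, other filters, the likelihood ratio test, a replicate block, compared groups alone and leaving out each library. The members and gene lists were chosen with earlier results of these data known. Members described by library were, per role, those with the largest difference at D10 (3 chaperones, 2 of other roles) and the 2 with the widest range of group means; of other pathway genes, the 2 with the largest difference at D10, of which 1 gene is not reported here. Gene positions are from GENCODE, promoters from RefSeq.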

Additional observations from a re-analysis of the deposited data

Results flagged for a closer look

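For 26 of the 37 members the gap between the 2 compounds changed over the 5 times, by edgeR's quasi-likelihood test of the interaction of condition and time (Benjamini-Hochberg adjusted p below 0.05 over 17120 genes, 3 libraries a group). The same test called 48.8% of all genes. Among chaperones and isomerases the adjusted p was 1.41e-07 for Hspa5, 9.29e-09 for Hsp90b1, 1.05e-11 for Calr, 0.0141 for Sdf2l1 and 0.0131 for Creld2, and 1.94e-05 for Pdia3, 6.58e-08 for Pdia4, 4.04e-10 for Pdia6 and 4.68e-14 for P4hb. For the transcription factors it was 2.22e-09 for Xbp1, 2.07e-13 for Creb3l1 and 0.00214 for Creb3l2. In the ATF4 branch it was 1.25e-06 for Atf4, 1.56e-05 for Ddit3, 1.58e-09 for Trib3, 1.36e-10 for Chac1 and 4.88e-08 for Asns. For degradation and export genes it was 4.36e-09 for Herpud1, 1.04e-05 for Edem1, 0.00218 for Sec23a, 2.91e-05 for Sec24d and 0.0315 for Sec31a. For the translocon and the KDEL receptors it was 0.0445 for Ssr1, 0.0196 for Ssr3, 6.51e-05 for Kdelr2 and 2.75e-07 for Kdelr3. Calls for Sdf2l1 (without CD1530 D8.5 replicate 2, adjusted p = 0.0547), Creld2 (without AGN D8.5 replicate 1, 0.0769), and Ssr3 (0.0535 with the likelihood ratio test) were each lost in 1 of 38 alternatives. The call of Sec31a was lost in 6 of the 38 (adjusted p of up to 0.121), and that of Ssr1 in 21 of the 38 (up to 0.285).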

How the results depend on the processing

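Of the counts of called members in the 13 comparisons and the interaction, those at D6.25 and D6.75 moved by more than 1.5 times. At D6.25 the 0 calls became 1 with library size alone, 1 with a replicate block, 2 with the compared groups fitted alone and 2 with DESeq2. At D6.75 the 9 calls became 2 with the compared groups alone, and 5 to 11 when 1 library was left out. The reversed results were those of Hyou1 from D7.5 to D10 with library size alone, -0.0225 (adjusted p = 0.531) under CD1530 and -0.0197 (adjusted p = 0.58) under AGN 193109. Leaving out 1 library gave 14 to 16 calls at D7.5, 11 to 13 at D8.5, 19 to 22 at D10 and 24 to 30 in the interaction. The number of higher calls at D10 was 5 with the compared groups alone, and lower calls from D6.25 to D7.5 under CD1530 were 14. Same-numbered libraries did not deviate together (correlations -0.129 to 0.0995, none of the 13 comparisons with all 3 numbers over 0.1), so the replicate block was not used for pairing, and it changed no other count by 1.5 times. Depth was not limiting for the members, whose lowest count was 124. With 3 libraries a group, p-values measure the spread between cultures whose cell line was not given. The cause of these changes was not tested.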
